A study of Mus musculus with 8 samples.

Results

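The actin cytoskeleton and nonmuscle myosin II were examined at the transcript level through 36 genes, chosen by name from the table of TPM (transcript abundance corrected for length and scaled to a common sum) and joined by Ensembl identifier to the table of expected counts. They were 36 of 55414 genes in the tables, and all 36 were among the 14772 genes with enough counts to be tested. RNA was sequenced from mpkCCD cells, a re-cloned mouse line derived from cortical collecting ducts of SV-PK/Tag transgenic mice, which keeps the vasopressin response of principal cells. The tolvaptan plus dDAVP group held 4 libraries of cells given tolvaptan, an antagonist of the vasopressin V2 receptor, in the continued presence of dDAVP, an agonist of that receptor. The dDAVP alone group held 4 libraries of cells that received the agonist without the antagonist, so both groups carried dDAVP and neither was a group without agonist. The labels give neither dose nor time, and the study's text gives both, with an exposure of a day on permeable supports. The labels do not tell separate cultures from repeated libraries of one culture, and the p-values reflect only the scatter among these libraries, part of which may be technical. In such bulk RNA, fewer cells making a transcript and less of it per cell cannot be told apart.

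Actin filaments are built from monomers of beta- and gamma-actin, are grown and cut by factors such as the Arp2/3 complex, profilin and cofilin, and are pulled by bipolar filaments of myosin II, whose force is switched by phosphorylation of its regulatory light chains. Tropomyosins, crosslinkers and side-binding proteins set which filaments myosin can reach, and talin, vinculin, paxillin and zyxin tie filaments to integrins. In collecting duct principal cells vasopressin is known to loosen the apical actin network, a step linked to the delivery of aquaporin-2 vesicles to the membrane. Monomeric actin holds back the cofactors MRTF-A and MRTF-B of serum response factor (SRF), which binds the CArG box in front of many genes of the cytoskeleton.

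Libraries held from 41179670 to 49720488 expected counts in tolvaptan plus dDAVP and from 46189118 to 56203831 in dDAVP alone. All 10 principal cell markers passed the filter on counts, with a summed level of 9442 to 11944 TPM in tolvaptan plus dDAVP libraries and 9036 to 11282 TPM in dDAVP alone libraries. Most of this sum was Aqp2, the vasopressin-regulated water channel, at 9439 ± 1014 TPM in tolvaptan plus dDAVP and 8947 ± 871 TPM in dDAVP alone (SD, n = 4 each), with a log2 fold change of 0.05 (95% interval -0.12 to 0.22, adjusted p = 0.857, edgeR). The lowest of the 10 principal cell markers were Scnn1b, Aqp4 and Aqp3, at means of 0.81, 2.01 and 4.91 TPM over the 8 libraries. None of 5 intercalated cell markers and none of 5 endothelial markers passed the filter on counts. Of 11 smooth muscle and fibroblast markers, which matter here because muscle cells hold their own actins and myosins, only Myh11 passed, and the list summed to 0.65 to 1.00 TPM in tolvaptan plus dDAVP against 0.45 to 1.17 TPM in dDAVP alone. The 5 leukocyte markers summed to 6.26 to 7.02 TPM in tolvaptan plus dDAVP against 4.48 to 5.79 TPM in dDAVP alone, nearly all of it Cd68, a lysosomal protein (adjusted p = 0.250, edgeR), while Ptprc averaged 0.168 TPM in tolvaptan plus dDAVP and 0.153 TPM in dDAVP alone. The part of this difference in the results was not tested. No marker of these lists was at 0 in every library.

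RefSeq promoter windows (build GRCm38.p6, 250 bases before and 50 after the transcription start) were matched by symbol for 33 of the 36 genes, as 39 windows. A CArG box, searched in a form that reads the same on both strands, was present in 6 of these 39 windows (15.4%), against 535 of 32851 windows of all genes (1.63%) and 175 of 13282 windows of tested genes (1.32%). The windows were those of Actg1, Cnn2, Lima1, Myl6, Myl9 and Vcl, 1 box each. The motif GGAATG, searched on both strands as GGAATG or CATTCC and known as a TEAD motif, was present in 10 of the 39 windows (25.6%), against 14.7% of all windows and 12.4% of those of tested genes. Only Vcl held both motifs, at separate places. These shares are descriptions of letters in a window and were not tested. The boxes of Cnn2 and Myl6 read CCTTATAAGG and CCTTATATGG. Windows of Myl9 and Lima1 are shown because these were the members whose levels did not overlap between the groups, and those of Actg1 and Vcl because their box belongs to well-known SRF targets. Capitals mark the CArG box.
Myl9 promoter, chr2:156775214-156775513, plus strand: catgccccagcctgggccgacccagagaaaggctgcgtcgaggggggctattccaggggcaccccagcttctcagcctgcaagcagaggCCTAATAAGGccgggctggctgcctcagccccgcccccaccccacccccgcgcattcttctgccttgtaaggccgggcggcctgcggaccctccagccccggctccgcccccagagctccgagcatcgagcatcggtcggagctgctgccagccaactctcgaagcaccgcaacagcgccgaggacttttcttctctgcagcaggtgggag
Lima1 promoter, chr15:99820100-99820399, minus strand: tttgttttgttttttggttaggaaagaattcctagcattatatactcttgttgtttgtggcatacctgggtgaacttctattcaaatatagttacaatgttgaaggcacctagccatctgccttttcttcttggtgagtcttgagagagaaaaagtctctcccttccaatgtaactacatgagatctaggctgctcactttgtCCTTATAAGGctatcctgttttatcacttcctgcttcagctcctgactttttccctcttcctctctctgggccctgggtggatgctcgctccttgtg
Actg1 promoter, chr11:120348446-120348745, minus strand: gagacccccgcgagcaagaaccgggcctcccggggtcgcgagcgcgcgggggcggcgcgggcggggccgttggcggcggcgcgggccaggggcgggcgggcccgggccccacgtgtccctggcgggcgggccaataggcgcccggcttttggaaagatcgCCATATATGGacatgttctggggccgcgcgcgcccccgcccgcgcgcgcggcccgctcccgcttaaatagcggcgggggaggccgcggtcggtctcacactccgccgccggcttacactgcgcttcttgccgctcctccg
Vcl promoter, chr14:20929148-20929447, plus strand: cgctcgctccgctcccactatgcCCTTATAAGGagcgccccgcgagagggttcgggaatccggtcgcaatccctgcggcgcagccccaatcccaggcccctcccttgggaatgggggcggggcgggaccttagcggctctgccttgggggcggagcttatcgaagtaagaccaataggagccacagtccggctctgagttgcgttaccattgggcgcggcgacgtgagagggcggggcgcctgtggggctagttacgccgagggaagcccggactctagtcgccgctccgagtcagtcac

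The comparison asked whether transcripts of the actin cytoskeleton differed when the antagonist was added to the agonist. No member passed the test. Of the 36 members, 0 rose and 0 fell at a Benjamini-Hochberg adjusted p of 0.05 in edgeR's quasi-likelihood test, where 0.399% of all genes tested passed (0.183% rose and 0.217% fell). The smallest adjusted p of a member was 0.314, for Myl9. At an unadjusted p under 0.05 there was 1 member, Myl9, which was lower, against 11.2% of all genes tested (4.74% lower), and DESeq2 also called 0 members, with 2 at an unadjusted p under 0.05. Levels in log2 CPM, counts scaled to library size, did not overlap between the groups for Myl9 and Lima1, both lower with tolvaptan, against 3.77% of genes tested that stood apart on the low side, 3.99% on the high side and 7.76% on either. The members' share, 2 of 36, is near that background.

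The intervals were narrow for most members. The 95% interval of the fold change lay within 0.32 of 0 on the log2 scale for 31 of 36 members, as for 55.8% of all genes tested. The exceptions were Myl9, Tpm2 and Tagln, the members of lowest level, and the long transcripts Flna and Tln1. Inside a 1.5-fold change lay 33 members and inside a 2-fold change 35, all but Myl9. The plot of fold changes with their intervals shows this by role. Of the members, 27 had a log2 fold change below 0 and 9 above, with a median of -0.04, while over all genes tested 7642 were below and 7130 above 0, with a median of -0.0048. The size of this shift varied with the libraries used, and the median stayed below 0 whichever single library was left out. Without tolvaptan replicate 1 the members' median was -0.0086 and 22 lay below 0, without dDAVP alone replicate 2 it was -0.02, and without tolvaptan replicate 2 it was -0.06. With replicates 3 and 4 of both groups only, the median was 0.0047 and 17 lay below 0.

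**Figure D1:**
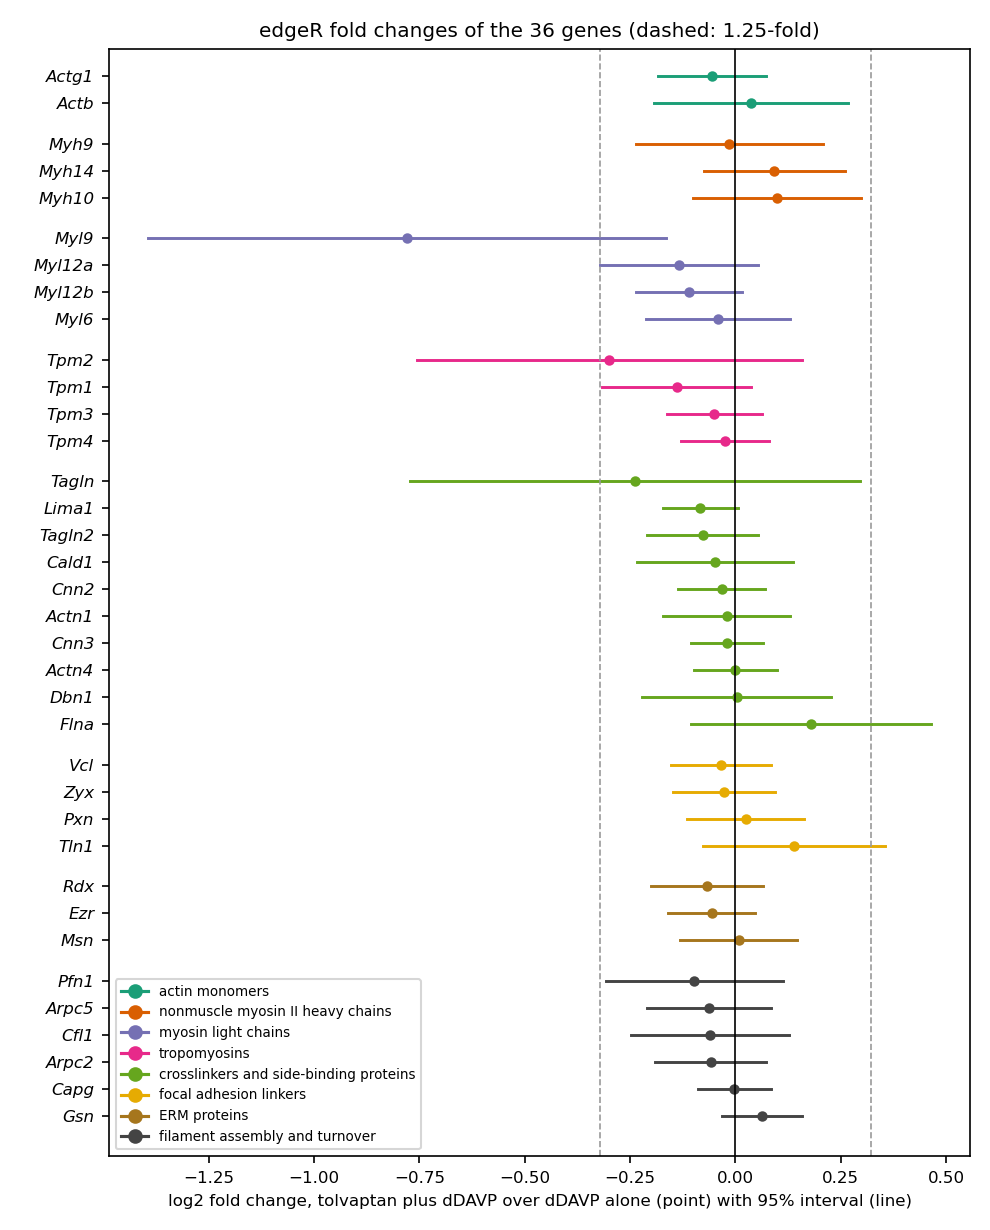
Fold changes of the 36 genes from the edgeR fit, grouped by role. Each point is the log2 fold change of tolvaptan plus dDAVP over dDAVP alone and each line its 95% interval, with dashed lines at -0.32 and 0.32. Intervals of 31 genes lie between the dashed lines, and Myl9, Tpm2, Tagln, Flna and Tln1 reach beyond them.

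The members' levels differed widely. TPM is corrected for transcript length, so levels can be set beside each other. Beta-actin, profilin and cofilin stood highest, with Actb at rank 10, Pfn1 at rank 15 and Cfl1 at rank 35 among all genes by mean TPM. The muscle-type members Myl9 and Tagln, at about 1 TPM, and Tpm2 stood lowest.

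**Figure D2:**
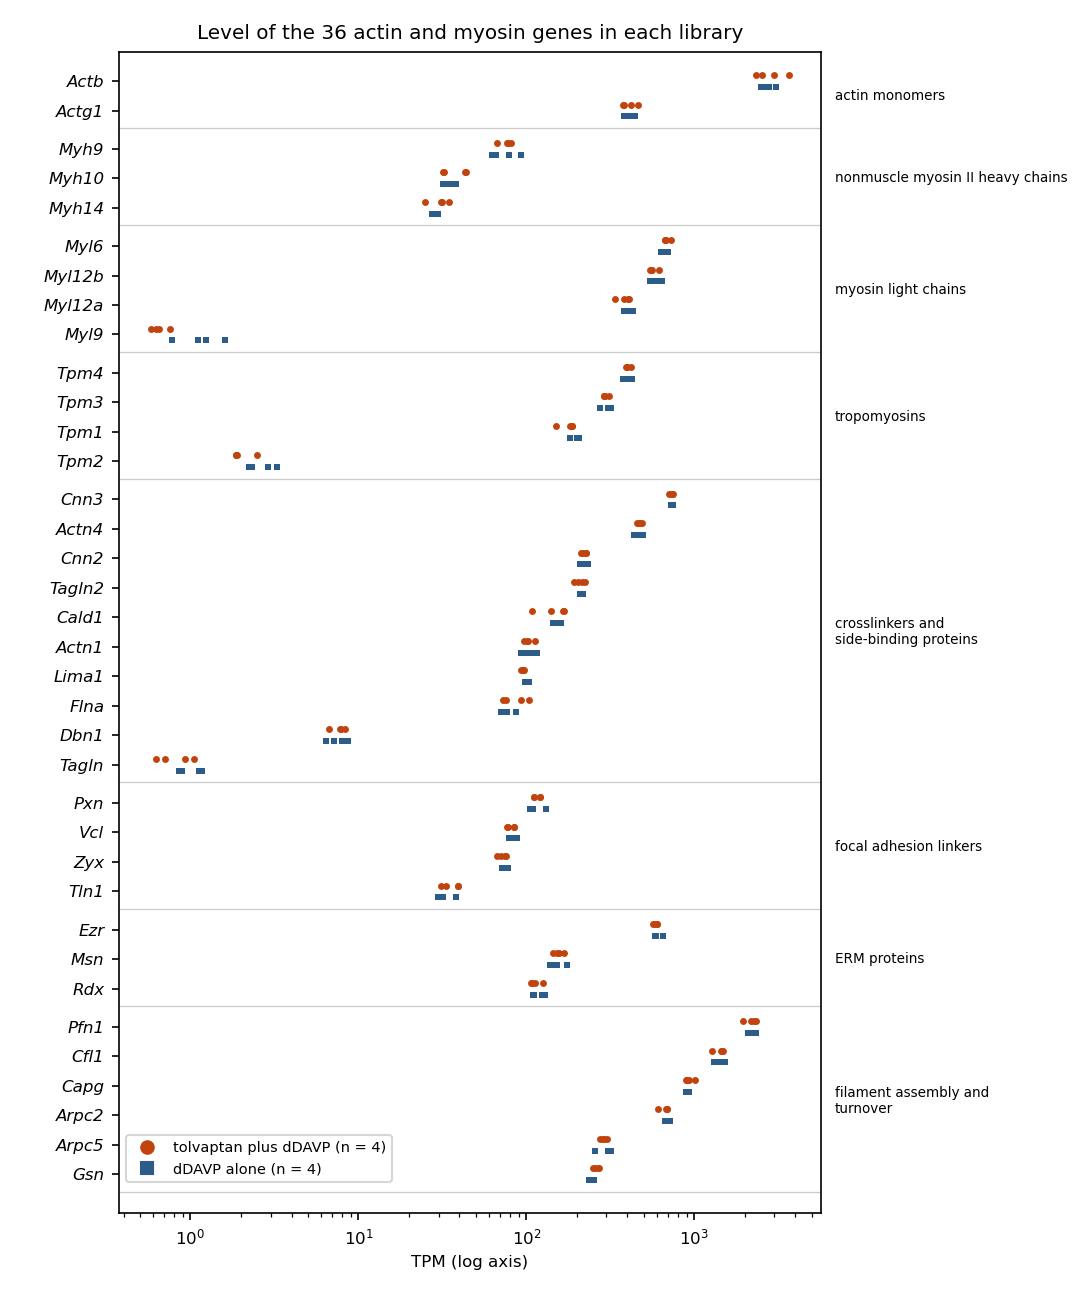
Level of each of the 36 genes in TPM on a log axis. Each red circle is a library of tolvaptan plus dDAVP and each blue square a library of dDAVP alone, 4 of each per gene. The levels run from 0.58 TPM for Myl9 to 3661 TPM for Actb, and the circles and squares of each gene overlap except for Myl9 and Lima1.

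Among the actin monomers, Actb (ENSMUSG00000029580), which encodes beta-actin, had 3661, 2996, 2316 and 2526 TPM in tolvaptan plus dDAVP replicates 1 to 4, against 2727, 2490.4, 2773 and 3087 TPM in dDAVP alone replicates 1 to 4. Tolvaptan replicates held both the highest and the lowest level, and the dDAVP alone libraries lay between them. The log2 fold change was 0.04 (standard error 0.11, 95% interval -0.19 to 0.27, adjusted p = 0.931). Its direction depended on the libraries. Among replicates 1 and 2 of both groups it was 0.30 (adjusted p = 0.349) and among replicates 3 and 4 it was -0.24 (adjusted p = 0.340), without tolvaptan replicate 1 it was -0.08 and without dDAVP alone replicate 2 it was -0.0072. The labels name no batch. Actg1 (ENSMUSG00000062825), gamma-actin, averaged 410 ± 40.1 TPM in tolvaptan plus dDAVP and 409 ± 29.4 TPM in dDAVP alone (SD, n = 4 each), with a log2 fold change of -0.06 (95% interval -0.18 to 0.07). Actb made up 85.9% to 88.8% of the summed TPM of these 2 actins in tolvaptan plus dDAVP libraries and 85.6% to 87.7% in dDAVP alone libraries. Of the stretches of 50 bases in their longest transcripts, 56.7% for Actg1 and 14.2% for Actb also occur in transcripts of other genes in GENCODE M21, so their counts depend on how such reads were shared out.

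Among the myosin II heavy chains, Myh9 (ENSMUSG00000022443), the heavy chain of nonmuscle myosin IIA and the most abundant of the 3, had 81.6, 77.5, 67.3 and 76.3 TPM in tolvaptan plus dDAVP, against 65.8, 93.1, 62.4 and 78.7 TPM in dDAVP alone. The dDAVP alone libraries covered the whole range of the tolvaptan ones. The log2 fold change was -0.01 (standard error 0.10, 95% interval -0.24 to 0.21). Myh10 (ENSMUSG00000020900), the heavy chain of myosin IIB, which is named in the study's text, had 42.9, 43.6, 31.7 and 32.3 TPM in tolvaptan plus dDAVP, against 32.0, 35.9, 34.03 and 38.1 TPM in dDAVP alone. Tolvaptan replicates 1 and 2 stood above every dDAVP alone library, and tolvaptan replicate 3 stood below every one of them. The log2 fold change was 0.10 (95% interval -0.10 to 0.30, adjusted p = 0.741). It was 0.25 among replicates 1 and 2 and -0.06 among replicates 3 and 4. Myh14, the heavy chain of myosin IIC, averaged 30.4 ± 4.02 TPM with tolvaptan and 28.6 ± 1.09 TPM without (SD, n = 4 each), at a log2 fold change of 0.09. Myh9 gave 49.8% to 54.7% of the summed TPM of these heavy chains in tolvaptan plus dDAVP libraries and 50.4% to 58.8% in dDAVP alone libraries, Myh10 23.2% to 28.0% and 22.7% to 27.5%, and Myh14 20.1% to 22.2% and 18.5% to 22.3%.

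Among the myosin light chains, Myl9 (ENSMUSG00000067818), the regulatory light chain typical of smooth muscle, had 0.76, 0.62, 0.58 and 0.65 TPM in tolvaptan plus dDAVP, against 0.78, 1.6, 1.11 and 1.23 TPM in dDAVP alone. Every tolvaptan library stood below every dDAVP alone library, by the narrowest of gaps between the replicates numbered 1. These levels rest on 15, 13, 14 and 15 counts in tolvaptan plus dDAVP, against 23, 34, 26 and 22 counts in dDAVP alone. The fold change was 0.583 (95% interval 0.380 to 0.892), a log2 value of -0.78 and a standard error of 0.28, unadjusted p = 0.0171 and adjusted p = 0.314 in edgeR. The log2 fold change kept its sign in all 18 alternatives, from -0.90 without dDAVP alone replicate 1 to -0.39 with limma on log2(TPM + 1), and its adjusted p ran from 0.250 to 0.646 where one was given. DESeq2 gave none. The summed smooth muscle and fibroblast markers, which Myl9 is known to accompany, overlapped between the groups. Myh11, the smooth muscle myosin heavy chain, had 0.18, 0.24, 0.17 and 0.34 TPM in tolvaptan plus dDAVP, against 0.14, 0.16, 0.11 and 0.12 TPM in dDAVP alone. Every tolvaptan library was above every dDAVP alone library in TPM, the opposite direction to Myl9, while log2 CPM overlapped (log2 fold change 0.59, 95% interval -0.0075 to 1.19, adjusted p = 0.455, edgeR). Muscle genes did not share a direction. With tolvaptan and with dDAVP alone, Des averaged 0.1825 and 0.295 TPM, Cnn1 0.055 and 0.1175 TPM and Acta2 0.0475 and 0.045 TPM. None of these passed the filter on counts. The members Tagln and Tpm2, given below, had log2 fold changes of -0.24 and -0.30.

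The regulatory light chains used by nonmuscle cells are encoded by Myl12a and Myl12b, beside which Myl9 held at most 0.149% of the regulatory light chain TPM in any library. Myl12b averaged 566 ± 31.6 TPM in tolvaptan plus dDAVP and 596 ± 43.7 TPM in dDAVP alone (SD, n = 4 each), at a log2 fold change of -0.11 (95% interval -0.24 to 0.02). Myl12a averaged 384 ± 32.3 and 412 ± 24.4 TPM, at a log2 fold change of -0.13 (95% interval -0.32 to 0.05). Their direction was negative, and among replicates 3 and 4 the log2 values were -0.0015 for Myl12b and 0.01 for Myl12a. Of the 50-base stretches of Myl12a, 29.2% were found in transcripts named Myl12b, and of those of Myl12b 9.17% were found in Myl12a. In GENCODE M21 the name Myl12b also covers ENSMUSG00000117098, listed in the files as Gm49909, so the 29.2% pools that locus with Myl12b. Both Myl12a and Myl12b share exons with Gm49909. It had a mean of 262 TPM and a log2 fold change of 0.11 (adjusted p = 0.756, edgeR), so the division of reads among these 3 is uncertain. Myl6 (ENSMUSG00000090841), the essential light chain and the most abundant of the group, had 665, 679, 723 and 672 TPM in tolvaptan plus dDAVP, against 664, 697, 695 and 638 TPM in dDAVP alone. The groups overlapped, at a log2 fold change of -0.04 (95% interval -0.21 to 0.13).

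Among the tropomyosins, Tpm4 (ENSMUSG00000031799), a tropomyosin of nonmuscle cells, had 399, 421, 395 and 397 TPM in tolvaptan plus dDAVP, against 425, 423, 402 and 378 TPM in dDAVP alone. The groups overlapped, with a log2 fold change of -0.03 (95% interval -0.13 to 0.08). Tpm4 held 44.2% to 47.4% of tropomyosin TPM with tolvaptan and 44.5% to 45.3% with dDAVP alone, followed by Tpm3 at 32.5% to 34.7% and 32.9% to 35.2%. Tpm1 averaged 177 ± 17.5 TPM in tolvaptan plus dDAVP and 193 ± 13.003 TPM in dDAVP alone (SD, n = 4 each), at a log2 fold change of -0.14 (95% interval -0.32 to 0.04). Its low value in tolvaptan replicate 1, 151 TPM, stood under the next library of its group, at 183 TPM, and among replicates 3 and 4 its log2 fold change was 0.03. Tpm2, the tropomyosin typical of smooth muscle, averaged 2.02 ± 0.304 and 2.68 ± 0.485 TPM, at a log2 fold change of -0.30 (95% interval -0.76 to 0.16). For Tpm3, 62.4% of the 50-base stretches also occur in Tpm3-rs7. Of the 36 members, 12 had 10% or more of such stretches in transcripts of other genes. They included Vcl at 39.2%, Cnn3 at 30.3%, Cfl1 at 23%, Myl6 at 18.5%, Tpm4 at 16.1% and Actn1 at 10.2%.

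Among crosslinkers and side-binding proteins, Lima1 (ENSMUSG00000023022), which encodes EPLIN, a protein that bundles filaments and slows their turnover, had 97.4, 96.02, 92.4 and 95.3 TPM in tolvaptan plus dDAVP, against 98.2, 100.9, 100.2 and 103.9 TPM in dDAVP alone. Every tolvaptan library was lower than every dDAVP alone library, and the difference was small. The fold change was 0.944 (95% interval 0.888 to 1.00), a log2 value of -0.08 and a standard error of 0.04 and an adjusted p of 0.478. Lima1 had the smallest spread within groups of any member, an SD of 0.026 on the log2 CPM scale, against a median of 0.108 over the members and 0.125 over all genes tested. Its sign held in all 18 alternatives, from -0.11 to -0.05.

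Cnn3 (ENSMUSG00000053931), a calponin that binds along filaments and the most abundant member of this role, had 746, 739, 704 and 741 TPM in tolvaptan plus dDAVP, against 725, 723, 743 and 749 TPM in dDAVP alone. The groups overlapped, at a log2 fold change of -0.02 (95% interval -0.10 to 0.07). Flna, filamin A, which joins filaments into networks, was singled out because it had the highest log2 fold change of the members, 0.18 (standard error 0.13, 95% interval -0.11 to 0.46, adjusted p = 0.664). It had 103, 93.2, 73.0 and 76.1 TPM in tolvaptan plus dDAVP, against 76.1, 86.5, 70.4 and 77.0 TPM in dDAVP alone. Only tolvaptan replicates 1 and 2 stood above the dDAVP alone libraries, and the log2 fold change was 0.32 among replicates 1 and 2 and 0.01 among replicates 3 and 4. Dbn1 (ENSMUSG00000034675), drebrin, a side-binding protein named in the study's text, had 6.67, 8.33, 7.74 and 7.89 TPM in tolvaptan plus dDAVP, against 7.94, 8.63, 6.44 and 7.12 TPM in dDAVP alone. The groups overlapped over nearly their whole range, at a log2 fold change of 0.0030 (standard error 0.10, 95% interval -0.22 to 0.23, adjusted p = 0.996).

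The remaining members of this role had log2 fold changes between -0.24 and -0.00032. Actn1 and Actn4, the alpha-actinins that bundle antiparallel filaments, stood at -0.02 and -0.00032. Actn4 held 80.7% to 83.1% of alpha-actinin TPM with tolvaptan and 80.2% to 83.4% with dDAVP alone. Cald1, caldesmon, which restrains myosin on the filament, averaged 145 ± 27.4 TPM in tolvaptan plus dDAVP and 149 ± 7.23 TPM in dDAVP alone, with its lowest level, 109 TPM, in tolvaptan replicate 1. Cnn2 had a log2 fold change of -0.03, Tagln2 of -0.08 and Tagln, the transgelin of smooth muscle at 0.828 ± 0.197 and 1.01 ± 0.161 TPM, of -0.24 (95% interval -0.77 to 0.30). Exons of Tagln overlap Gm48529 and Pcsk7 on the opposite strand, at means of 3.31 and 48.3 TPM. Of the 50-base stretches of Tagln, 44.5% also occur in Gm48529. Without strand marks, reads from the overlapping stretches cannot be assigned to a gene by strand.

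**Figure D3:**
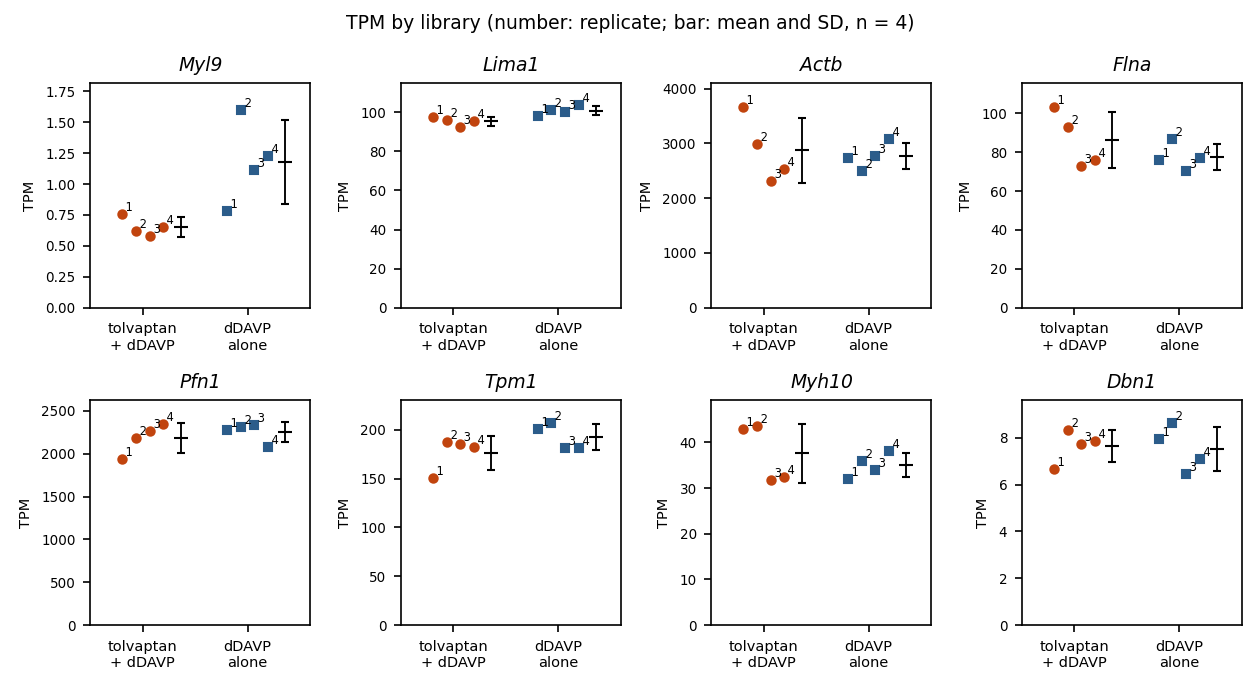
TPM in every library for Myl9, Lima1, Actb, Flna, Pfn1, Tpm1, Myh10 and Dbn1, on axes that start at 0. Red circles are tolvaptan plus dDAVP and blue squares dDAVP alone, each numbered by replicate, with the mean and SD (n = 4) at the side. Myl9 and Lima1 show no overlap between groups, and in Actb, Flna and Myh10 tolvaptan replicates 1 and 2 stand above tolvaptan replicates 3 and 4.

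Among focal adhesion linkers, Pxn (ENSMUSG00000029528), the adaptor paxillin and the most abundant of the 4, had 111, 121, 112 and 120.0 TPM in tolvaptan plus dDAVP, against 105.7, 132, 110.1 and 109 TPM in dDAVP alone. The groups overlapped, at a log2 fold change of 0.02 (95% interval -0.11 to 0.16). Vcl, vinculin, averaged 80.9 ± 4.25 TPM with tolvaptan and 82.8 ± 4.66 TPM with dDAVP alone, and Zyx, zyxin, 71.9 ± 3.96 and 73.1 ± 3.17 TPM (SD, n = 4 each), at log2 fold changes of -0.03 each. Tln1, talin, which binds integrin tails, averaged 35.6 ± 4.28 and 32.5 ± 3.74 TPM, at a log2 fold change of 0.14 (95% interval -0.08 to 0.36). It was positive in all 18 alternatives, with an adjusted p from 0.403 to 0.875. Exons of Vcl overlap Ap3m1, those of Zyx overlap Epha1 and those of Tln1 overlap Creb3 on the opposite strand, partners with mean levels of 42.3, 23.2 and 98.7 TPM and adjusted p of 0.948, 0.872 and 0.775.

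The ERM proteins ezrin, moesin and radixin link filaments to the plasma membrane. Ezr (ENSMUSG00000052397) had 597, 599, 568 and 578 TPM in tolvaptan plus dDAVP, against 591, 593, 587 and 650.3 TPM in dDAVP alone. The groups overlapped, with the highest level in dDAVP alone replicate 4, and the log2 fold change was -0.06 (95% interval -0.16 to 0.05). Ezr held 67.9% to 69.3% of the summed ERM TPM with tolvaptan and 66.2% to 72.4% with dDAVP alone. Msn had a log2 fold change of 0.0076 and Rdx of -0.07, each with a 95% interval within 0.32 of 0.

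Among genes of filament assembly and turnover, Pfn1 (ENSMUSG00000018293), profilin, which feeds monomers to growing ends, had 1942, 2186, 2269.9 and 2344 TPM in tolvaptan plus dDAVP, against 2277, 2308, 2336 and 2084 TPM in dDAVP alone. The groups overlapped, with the lowest level in tolvaptan replicate 1, and the log2 fold change was -0.10 (95% interval -0.31 to 0.11). Cfl1, the severing factor cofilin, averaged 1415 ± 91.6 TPM in tolvaptan plus dDAVP and 1426 ± 88.3 TPM in dDAVP alone (SD, n = 4 each), at -0.06. The Arp2/3 subunits Arpc2 and Arpc5 stood at log2 fold changes of -0.06 each. Capg, which caps filament ends, averaged 935 ± 56.0 and 907 ± 17.6 TPM, at a log2 fold change of -0.0028 (95% interval -0.09 to 0.08). Gsn, gelsolin, which severs and caps, averaged 261 ± 10.2 and 248 ± 8.09 TPM, at 0.06 (95% interval -0.03 to 0.16). Gsn was the only member of this role above 0.

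Within families the proportions of paralogues overlapped between the groups for all 21 genes compared in 7 families, Myl9 among the regulatory light chains included, at 0.0571% to 0.0861% with tolvaptan and 0.0768% to 0.149% with dDAVP alone. The 36 members together held 1.44% to 1.53% of TPM in tolvaptan plus dDAVP libraries and 1.49% to 1.51% in dDAVP alone libraries.

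Members of like length deviated together in single libraries. Effective length was taken from the files as counts per TPM. The 9 members of greatest length were Tln1, Myh9, Flna, Vcl, Myh10, Rdx, Lima1, Msn and Myh14, and the 9 shortest Myl6, Pfn1, Myl12a, Myl9, Myl12b, Cfl1, Capg, Tpm2 and Arpc2. In tolvaptan replicate 1 the longest stood on average 0.11 above and the shortest 0.24 below their means over the 8 libraries, in log2 CPM. There Flna, among the longest, deviated by 0.44, while among the shortest Pfn1 deviated by -0.40, Myl12a by -0.36 and Cfl1 by -0.31. Actb and Tpm1, at 0.67 and 0.72 times the effective length of the median gene tested, were in neither set. They deviated by 0.34 and -0.34. In dDAVP alone replicate 3 the order was turned, with -0.12 for the longest and 0.09 for the shortest. Over the 36 members, Spearman's rank correlation between length and deviation was 0.73, 0.35, -0.55 and -0.0054 in tolvaptan plus dDAVP replicates 1 to 4, against -0.48, -0.0021, -0.71 and 0.17 in dDAVP alone replicates 1 to 4. It ran the same way over all 14772 genes in the libraries with the highest and lowest values, at 0.44 in tolvaptan replicate 1 and -0.29 in dDAVP alone replicate 3. With log2 TPM in place of log2 CPM it was 0.58 and -0.72 over the members in those libraries. Each deviation is taken from the gene's own mean, so a fixed length per gene cancels. Only differences in effective length between libraries could change the value, and whether a correction for length removes it cannot be read from this. These are correlations across genes of a library, which are not independent replicates, and no test was made.

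Fold changes between the groups were then set beside length. Of the 9 longest members 5 had a log2 fold change above 0, with a median of 0.0076, and of the 9 shortest 0 did, with a median of -0.10. The values of these sets overlapped, with Lima1 and Rdx among the longest below Capg and Myl6 among the shortest. Over all genes tested in the same length ranges, 65.9% of 3086 long genes lay above 0, with a median of 0.05, and 34.7% of 3665 short genes, with a median of -0.05. With the effective length of each gene and library as an offset in edgeR, an alternative added after seeing the data, 26 of 36 members were below 0, the median was -0.03 and 0 members passed. That offset takes in only differences in a gene's effective length between libraries. The part of length in the group difference was not tested.

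**Figure D4:**
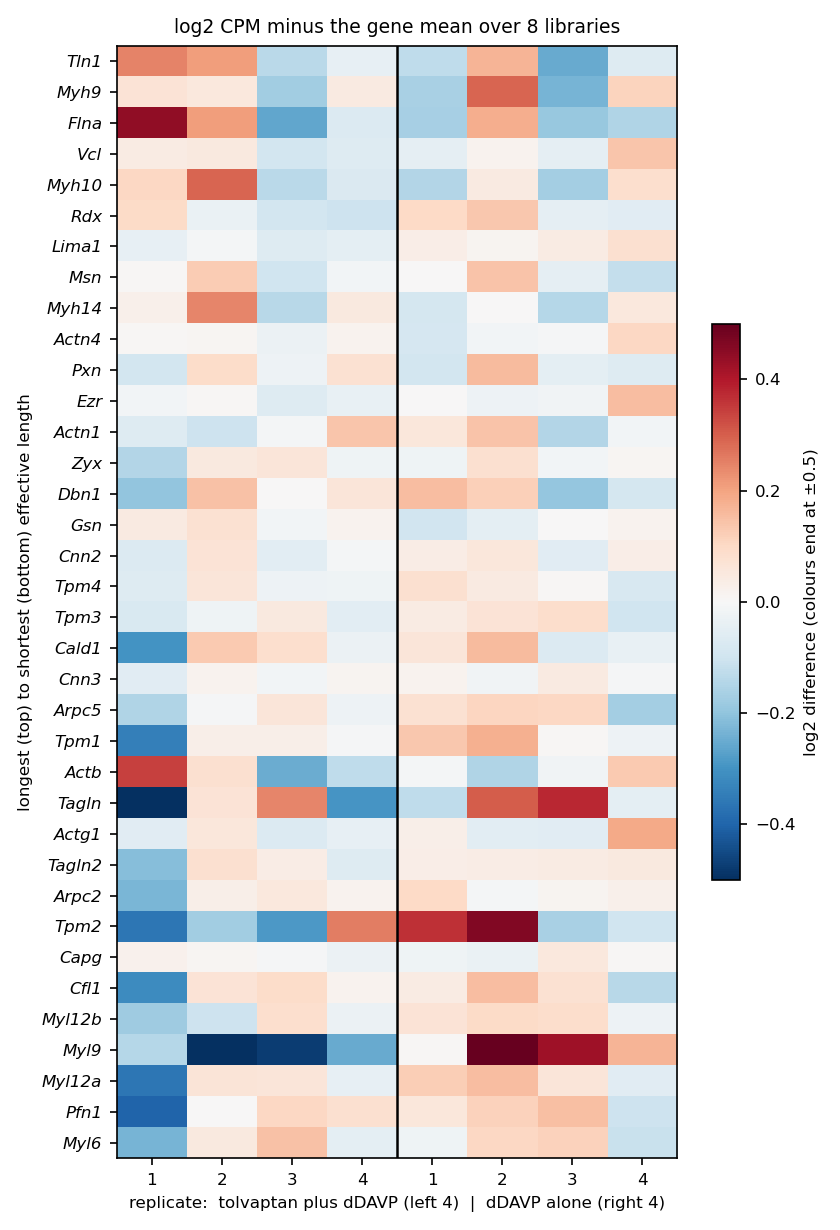
Log2 CPM of each of the 36 genes minus its mean over the 8 libraries, with red above and blue below the mean and colours that end at 0.5. Columns are replicates 1 to 4 of tolvaptan plus dDAVP and then of dDAVP alone, and rows run from the longest to the shortest effective length. In tolvaptan replicate 1 most long genes are red and most short genes blue, and 12 of 36 members are above their mean there against 28 in tolvaptan replicate 2 and 28 in dDAVP alone replicate 2.

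Other genes that act on actin were counted in the same fit, from 7 lists with 153 genes, of which 131 were tested. Of these 131 genes 1 fell and 0 rose, where 0.217% of all genes tested fell and 0.183% rose, and the median log2 fold change was -0.0082. Rnd3 (ENSMUSG00000017144), an inhibitor of the kinase ROCK1, had 38.2, 44.0, 40.4 and 35.9 TPM in tolvaptan plus dDAVP, against 56.4, 57.3, 57.5 and 56.8 TPM in dDAVP alone. Every tolvaptan library was well below every dDAVP alone library. The log2 fold change was -0.52 (standard error 0.06, 95% interval -0.66 to -0.39, adjusted p = 0.00297). It passed in every alternative but that of replicates 1 and 2 of both groups only.

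DESeq2 called 4 genes of the 7 lists, Rnd3, Rhob, Fermt2 and Myo7a, and edgeR without a filter called Rnd3, Rhob and Fermt2, where these settings called 2.28% and 0.672% of all genes tested. The 4 of 131 genes under DESeq2 are near its share. Without a filter 38115 genes entered the fit, against 14772 with it, while 131 of the 153 listed genes reached the filter. The share of 0.672% is therefore no like background for Rnd3, Rhob and Fermt2. No list was tested as a set. Fermt2, kindlin-2, which activates integrins with talin, had the smallest p among 28 tested crosslinkers and adhesion proteins, at a log2 fold change of -0.27 (adjusted p = 0.137 in edgeR). Myo7a, an unconventional myosin, had the smallest p among 16 tested unconventional myosins, at 0.37 (adjusted p = 0.0912), and 13 of those 16 lay above 0 with a median of 0.09, against 7130 of 14772 genes tested. All 16 were long, at 1.61 to 5.41 times the effective length of the median gene tested, and the share of long genes above 0 is given above. The part of length in their values was not tested.

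The lists of the Arp2/3 complex, formins, capping genes and SRF also gave 0 calls in edgeR. Of 16 tested genes of the Arp2/3 complex and its activators the smallest p was that of Arpc1b, at a log2 fold change of 0.08 (adjusted p = 0.516). Of 14 tested formins and nucleators it was that of Spire2, at 0.14 (adjusted p = 0.484), and of 22 tested capping, severing and monomer-binding genes that of Coro2a, at -0.10 (adjusted p = 0.436). Of 10 tested genes of the SRF list it was that of Smtnl2, at -0.16 (adjusted p = 0.232). Srf itself averaged 11.8 ± 0.935 TPM in tolvaptan plus dDAVP and 12.04 ± 1.0 TPM in dDAVP alone (SD, n = 4 each), at a log2 fold change of 0.04 (95% interval -0.19 to 0.27). Its cofactors Mrtfa and Mrtfb stood at -0.04 and 0.08. Of the muscle genes in this list, Acta2, Actc1, Actg2, Cnn1, Des, Lmod1 and Myocd did not reach the count filter. Among those that did were Myh11, given above, and Acta1, skeletal muscle actin, at a mean of 0.425 TPM with tolvaptan and 0.445 TPM with dDAVP alone and a log2 fold change of -0.04 (95% interval -0.79 to 0.72).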

How the data were processed

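RNA-seq libraries of mpkCCD cells, 4 with tolvaptan plus dDAVP and 4 with dDAVP alone, were compared; groups and replicate numbers came from the sample titles. Per the labels, SMARTer cDNA and Nextera XT libraries were sequenced as paired ends, a combination that does not mark strand. STAR and RSEM are named in the submitters' processing notes. The authors deposited RSEM expected counts per gene without normalization, and TPM values, which are corrected for length and scaled to a common sum per library. Tables of the authors' own DESeq2 comparison (fold changes and p-values) and term enrichment were not used.

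Expected counts were rounded. Genes reaching 10 counts in 4 or more libraries, 14772 in all, entered edgeR (version 4.0.16 under R 4.3.3, TMM, quasi-likelihood, no covariate, two-sided, Benjamini-Hochberg over all genes, threshold 0.05). Standard errors and 95% intervals were derived from each F statistic. Log2 CPM used a prior count of 2. The study used DESeq2, here an alternative (version 1.42.0), as was limma 3.58.1. The fit was tested on simulated counts. No pair of libraries of a group agreed within sampling noise (smallest chi-square per degree of freedom 8.08). Members and lists were chosen with earlier results of these data known. Values in every library were given for members with an unadjusted p under 0.05 or no overlap of log2 CPM, the highest in TPM of each of 8 roles, Dbn1 and Myh10; values of Flna, Myh11, Aqp2, Acta1, Srf, Mrtfa and Mrtfb, and the name of Rhob, were added after values were seen. Of the 7 other lists, called genes or else the smallest p were named; the account of 1 list is not reported here. Shared 50-base stretches and overlapping exons were taken from GENCODE M21 (GRCm38), another annotation than the study's. Alternatives were other scaling factors, DESeq2, limma on log2(TPM + 1), other count filters, the replicate number as a block, each library left out, replicates 1 and 2 or 3 and 4 only, and effective-length offsets. Depth limits precision for members with few counts.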

Additional observations from a re-analysis of the deposited data

Results flagged for a closer look

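Within each group of 4 libraries, libraries far from the other 3 were sought with Dixon's ratio of gap to range at its 95% limit, in 74 groups of values, the TPM of each of the 36 genes and their sum, and 9 were found. Chance gives about 1 in 20. In tolvaptan plus dDAVP replicate 1, Tpm1 had 151 TPM, against 183 in the nearest library of the group, and Arpc2 had 606 TPM, against 680.4. In the same group Tpm2 had 2.48 TPM in replicate 4, against 1.89, Tpm4 had 421 TPM in replicate 2, against 399, and Cnn3 had 704 TPM in replicate 3, against 739. In dDAVP alone replicate 2, Zyx had 77.8 TPM, against 71.8, and Pxn had 132 TPM, against 110.1. Ezr had 650.3 TPM in dDAVP alone replicate 4, against 593, and Gsn had 236 TPM in dDAVP alone replicate 1, against 250.2. None of these genes passed the test.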

How the results depend on the processing

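No member passed in any of the 18 alternatives, and 11 of the 36 members kept the sign of their fold change in all of them; 25 changed sign at least once without a call. The number of all genes called was 59 as reported, 337 with DESeq2 (199 rose, 138 fell), 256 without a filter, 22 with limma on log2(TPM + 1), 17 with the replicate number as a block, 4 with replicates 1 and 2 only and 29 with replicates 3 and 4 only, and from 20 to 82 when libraries were left out in turn, 20 without dDAVP alone replicate 2 and 82 without tolvaptan replicate 1. Without tolvaptan replicate 4 it was 22, without dDAVP alone replicates 1 and 3 it was 21 each, without dDAVP alone replicate 4 it was 28 and without tolvaptan replicate 2 it was 39. Of the other actin genes 1 was called, 4 with DESeq2, 3 without a filter and 0 with replicates 1 and 2 only. Leaving out libraries gave 0 members and 1 other gene throughout. Same-numbered libraries had correlations of their deviations from the group means of -0.01, 0.03, 0.16 and -0.0088, so the numbers were not shown to pair the samples, and the block left the members at 0. Effective-length offsets were chosen after seeing the data. The low counts of Myl9, 13 to 34 per library, limit what can be said of it. The cause of these differences between settings was not tested.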
